A study of Mus musculus with 6 samples.

Results

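The genes described here encode the proteasome, its regulators and its assembly factors, in mouse embryonic stem (ES) cells on the way to paraxial mesoderm. They were chosen by name alone, as every probe set whose annotated gene symbol began with Psma, Psmb, Psmc, Psmd, Psme, Psmf or Psmg. The rule found 103 of the 45101 probe sets on the array, for 49 of 18193 genes with a probe set of their own. Of these genes, 47 passed the filter on low signal, among the 12285 tested. The rule also took in Psmc3ip and Psme3ip1, which encode proteins named for binding a proteasome component and are not subunits, so the complex itself was represented by 47 genes. A further probe set, annotated to both Psme2 and Psme2b, was assigned to neither gene.

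The cells were of the line E14 (129P2/OlaHsd), carried a Venus reporter of Msgn1 (named Msgn1RepV in the labels), and were grown as a monolayer in serum with 0.5% DMSO, 10 ng/mL R-spondin3 and 200 ng/mL Noggin. All groups shared this medium, line and reporter. Cells positive for Venus were collected by sorting on day 3 or day 4, with 3 labelled biological replicates per day and 1 Affymetrix array per replicate. No unsorted or undifferentiated sample was part of the comparison, and the labels do not say whether the reporter line was 1 clone.

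The proteasome degrades proteins that carry ubiquitin chains. Its core particle is a barrel of stacked alpha and beta rings, and only 3 kinds of beta subunit, encoded by Psmb5, Psmb6 and Psmb7, cut peptide bonds. Cells exposed to interferon, and immune cells at rest, can replace these with Psmb8, Psmb9 and Psmb10 to form the immunoproteasome, which favours peptides suited to MHC class I. A regulatory particle, made of an ATPase base and a lid, binds the ubiquitin chain, removes it, and unfolds the substrate. Other activators (the Psme genes), an inhibitor (Psmf1) and dedicated chaperones (the Psmg genes with Psmd5, Psmd9 and Psmd10) complete the set.

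The sequences upstream of the immunoproteasome genes are shown first, because these 3 genes differed in their changes. They are from RefSeq (GRCm38.p6). Capitals mark any match, on either strand, to 4 motifs: the antioxidant response core TGACNNNGC, the CCAAT box, the gamma-activated site TTCNNNGAA and the interferon-stimulated letters GAAANNGAA. For Psmb10 and Psmb8 the 250 bases before the start site are given (chr8:105938393-105938642, minus strand, and chr17:34197945-34198194, plus strand). Psmb9 and Tap1 are transcribed away from each other, and the 225 bases between their start sites (chr17:34187331-34187555) are given on the strand of Tap1.
Psmb10: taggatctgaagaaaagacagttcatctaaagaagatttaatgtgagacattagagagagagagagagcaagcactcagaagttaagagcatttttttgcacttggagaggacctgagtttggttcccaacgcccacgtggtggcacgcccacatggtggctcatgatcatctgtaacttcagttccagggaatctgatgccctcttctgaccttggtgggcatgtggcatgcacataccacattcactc
Psmb8: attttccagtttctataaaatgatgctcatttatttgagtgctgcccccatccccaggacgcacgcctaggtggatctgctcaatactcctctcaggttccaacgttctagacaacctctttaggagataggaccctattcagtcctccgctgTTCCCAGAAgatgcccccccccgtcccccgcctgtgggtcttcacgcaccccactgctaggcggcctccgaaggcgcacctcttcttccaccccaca
Psmb9 to Tap1: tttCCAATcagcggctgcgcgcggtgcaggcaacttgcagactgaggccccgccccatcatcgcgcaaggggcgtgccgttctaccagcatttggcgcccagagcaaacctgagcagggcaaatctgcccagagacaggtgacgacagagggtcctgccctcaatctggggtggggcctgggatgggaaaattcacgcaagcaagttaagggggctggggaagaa
The Psmb10 stretch held none of the 4 motifs, the Psmb8 stretch held 1 gamma-activated site, and the stretch shared by Psmb9 and Tap1 held 1 CCAAT box. A gamma-activated site occurred in 7.02% of all 32851 promoter windows of 250 bases, and a CCAAT box in 33.8%. The stretch shared by Psmb9 and Tap1 was shorter, at 225 bases. Such matches are descriptions of letters, and no binding was measured.

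Values are deposited MAS5 signal intensities, in arbitrary units, and each gene is read from its brightest probe set. A change is the day 4 minus the day 3 mean of log2 signals, where -1 is a fall to 50% of the signal. It was tested with limma, which fits all genes together, and adjusted p is the Benjamini-Hochberg value over all genes tested. All 6 arrays had been scaled to a common level, with trimmed means that differed by at most 1.10%. Day 4 replicate 1 stood apart in RNA quality, with a Gapdh 3′ to 5′ signal ratio of 14.0 against 2.43 to 3.19 on the other arrays. Counts of calls, and the changes of some genes but not all, are also given without it. All 9 gate markers passed the filter on the mean over the 6 arrays, though some were dim on 1 day (Aldh1a2 read 21.5, 13.5 and 24.6 at day 3). The genes had no common direction, and their summed signal was 3329 to 3543 at day 3 and 5555 to 5820 at day 4. Rspo3 contributed most to the rise of this sum (mean 1275 at day 3 and 2695 at day 4), 4 of the 9 rose, and Tbx6 did not pass. Msgn1, the gene of the sorting reporter, fell (74.6 ± 15.0 and 33.2 ± 7.06, mean ± SD, n = 3; limma, adjusted p = 0.00723). Markers of ES cells and epiblast were lower at day 4 in 5 of 6 genes, or 4 without any 1 of 4 arrays (day 3 replicates 2 and 3, day 4 replicates 1 and 2; summed signal 4218 to 4515, then 1862 to 2139). In RNA from sorted bulk cells, fewer cells of a type and less RNA per cell cannot be told apart.

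Most proteasome genes differed little between the days, and nearly all that changed were lower at day 4. Of the 47 genes tested, 11 were lower and 1 was higher (limma, adjusted p under 0.05). Over all genes tested, 10.7% were lower and 11.5% higher by the same rule. The falls were in the immunoproteasome (2 of 3 genes), the ATPase base (4 of 6), the non-ATPase base (1 of 3), the lid (3 of 8) and the inhibitor Psmf1. The rise was in Psmd10. The median change of the 47 genes was -0.13 on the log2 scale, against -0.01 over all genes tested, and 40 of the 47 had a negative change. All day 4 arrays lay below all day 3 arrays in 19 of the 47 genes and above them in 2, where 20.6% and 20.7% of all genes tested did so. Proteasome transcripts gave bright and reproducible signals. Of the 49 genes, 27 averaged above a signal of 1000, as did 13.8% of all genes tested. The median standard error (SE) of the change was 0.09 over the 47 proteasome genes and 0.15 over all genes tested. Among the 1695 genes above that signal, 15.5% were lower and 13.4% higher. The number of calls depended on single arrays: 15 genes were lower and 2 higher without day 4 replicate 1, but 5, 7 and 4 were lower without day 3 replicate 1, 2 or 3, and 7 without day 4 replicate 2 or 3. Psmd10 was no longer called without any 1 of the day 3 arrays or day 4 replicate 3.

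**Figure D1:**
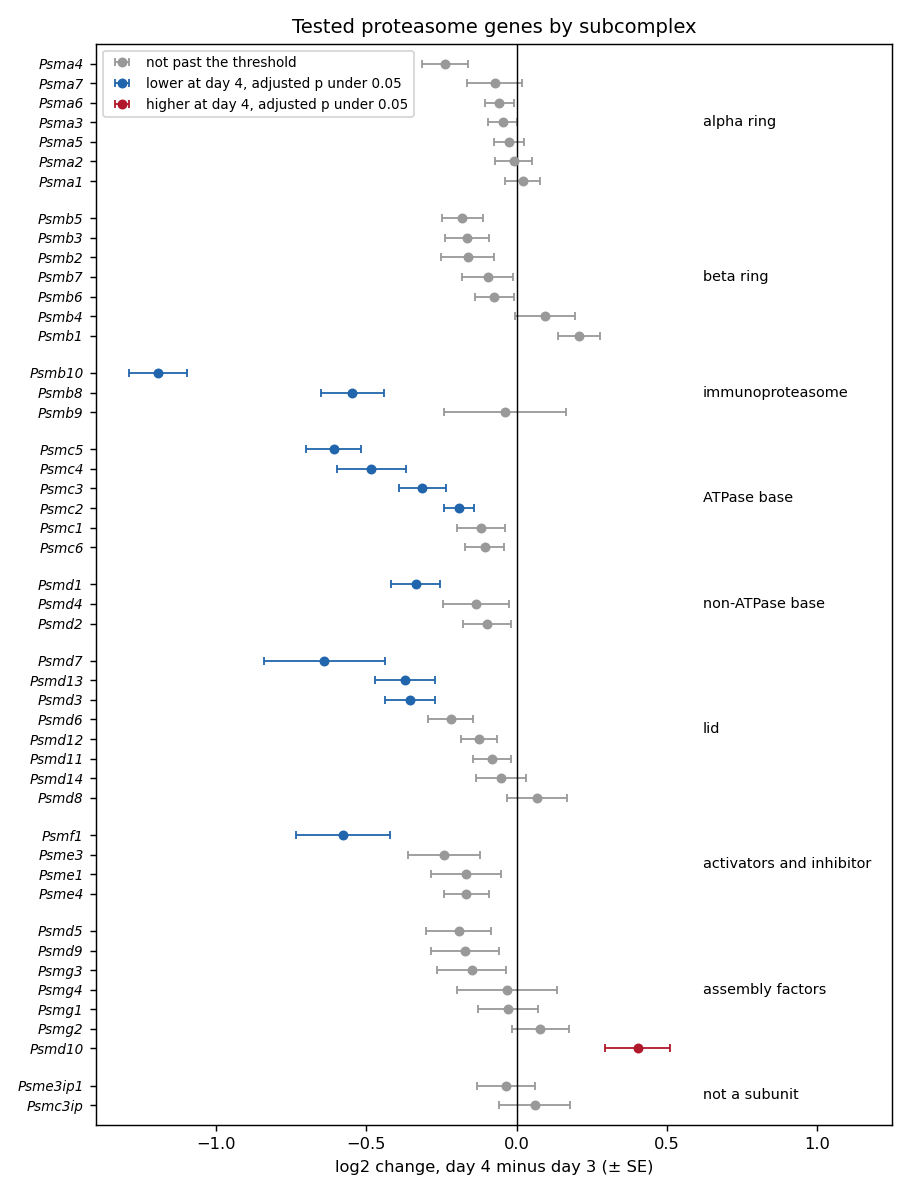
Log2 change from day 3 to day 4 (horizontal axis, with SE bars) of the 47 tested genes, grouped by subcomplex, with 3 arrays per day. Blue points (11) are lower and the red point (1) higher at day 4 at an adjusted p under 0.05 in limma, and grey points did not pass. Psmb10 lies farthest from 0, and no alpha ring or constitutive beta ring gene is coloured.

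The immunoproteasome subunits differed in their changes. Psmb10 fell by more than 2-fold, Psmb8 fell by less, and Psmb9 gave similar signals on both days. Psmb10 encodes the inducible subunit with trypsin-like specificity that takes the place of Psmb7. Its only probe set read 912, 774 and 889 on the day 3 arrays and 393, 369.7 and 359 on the day 4 arrays. Every day 4 array was thus below every day 3 array by a wide margin. The change was -1.20 ± 0.10 on the log2 scale (SE, as for all changes that follow), a 2.29-fold fall (limma, adjusted p = 6.85e-05). Psmb10 was the only tested proteasome gene with a change of 2-fold or more, a size reached with a call by 496 of all genes tested. In all, 217 of the genes tested had a more negative change.

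Psmb8, the inducible subunit that replaces Psmb5 and cuts after large hydrophobic residues, gave signals of 430.4, 369 and 411 at day 3, against 267, 266 and 295 at day 4. The days did not overlap, and the change was -0.55 ± 0.10 (limma, adjusted p = 0.00569). Its other probe set, which was dimmer, read 55.7, 63.1 and 71.0 at day 3, against 29.9, 34.7 and 47.5 at day 4, again without overlap. Psmb9, the inducible partner of Psmb6, gave 78.3, 52.1 and 74.0 at day 3, against 66.4, 75.6 and 55.4 at day 4. It had no other probe set, and its day 4 mean of 65.8 was the lowest daily mean of all tested proteasome genes. Its days overlapped fully, and its change of -0.04 ± 0.20 had a 95% interval from -0.49 to 0.42 (limma, adjusted p = 0.914), so a change as large as that of Psmb10 lay outside the interval. The sign of Psmb9 turned when any 1 of day 3 replicates 1 and 3 and day 4 replicate 3 was left out, where its change was 0.07, 0.03 and 0.08. Against Psmb9 on the same array, the change was -1.16 for Psmb10 and -0.51 for Psmb8 on the log2 scale, and in both the days did not overlap (exact 2-sided permutation p = 0.1, the smallest possible, for pairs chosen after their values were seen).

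The constitutive subunits that these 3 replace showed no called change. Psmb5 read 3275, 2902 and 3065 at day 3, against 2836, 2636 and 2674.5 at day 4. All day 4 values were lower, but the change of -0.18 ± 0.07 did not pass (limma, adjusted p = 0.0861). Array weights brought it past the threshold (0.016), as did leaving out day 4 replicate 1 (adjusted p = 0.0264 in limma). Psmb6 read 3394, 3085 and 3129 at day 3, against 3164, 3006 and 2954 at day 4, and Psmb7 read 2089, 1884 and 2317, then 1974, 2025.5 and 1865. Both overlapped between the days, with changes of -0.07 ± 0.06 and -0.10 ± 0.09.

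Within each array, the log2 difference between an inducible subunit and its constitutive counterpart tests whether the pair changed unequally. For Psmb10 minus Psmb7 this difference was -1.29 ± 0.09 at day 3 and -2.39 ± 0.06 at day 4 (n = 3 arrays on each day, mean ± SD; exact 2-sided permutation p = 0.1). For Psmb8 minus Psmb5 it went from -2.93 ± 0.04 to -3.30 ± 0.11 (exact permutation p = 0.1). In both pairs the days did not overlap, and 0.1 is the smallest p that 3 against 3 arrays allow, or 0.15 after adjustment over the 3 pairs. For Psmb9 minus Psmb6 it was -5.58 ± 0.27 and -5.54 ± 0.21, and the days overlapped (exact permutation p = 0.9). Only the movement of these differences can be read, since the levels of different probe sets are not comparable.

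**Figure D2:**
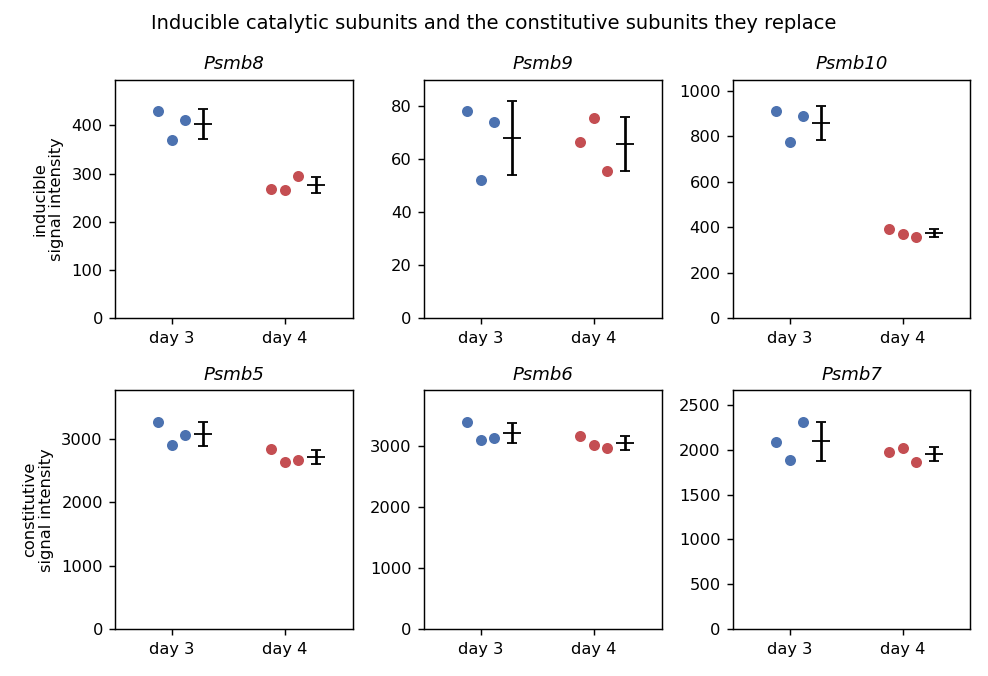
Signal intensity on each array (vertical axes, linear from 0, each panel on its own scale) for the 3 inducible catalytic subunits (top) and the constitutive subunits they replace (bottom), with 3 arrays at day 3 (blue) and 3 at day 4 (red). Black bars are mean ± SD. Psmb10 goes from 774 to 912 at day 3 to 359 to 393 at day 4, while Psmb9 spans 52.1 to 78.3 and then 55.4 to 75.6.

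Psmb8 and Psmb9 lie beside each other in the MHC, with the peptide transporter genes Tap1 and Tap2. In the RefSeq annotation the order on chromosome 17 was Psmb9, Tap1, Psmb8 and Tap2, with no other gene between them. Of these 4 neighbours Tap1 rose, Psmb8 fell, and Psmb9 and Tap2 did not pass. Tap1 read 58.6, 44.9 and 48.6 at day 3, against 133, 103 and 89.8 at day 4. Every day 4 array exceeded every day 3 array, and Tap1 rose by 1.09 ± 0.19 (limma, adjusted p = 0.00343). Tap1 and Psmb9 share the stretch of 225 bases printed above, yet Psmb9 showed no such rise on its only probe set, which was dim. Whether a change of Psmb9 was hidden by the dim signal was not tested. The log2 difference Tap1 minus Psmb9 went from -0.41 at day 3 to 0.71 at day 4, without overlap (exact 2-sided permutation p = 0.1, the smallest possible), a pair chosen after its values were seen. Tap2 did not pass (change 0.23 ± 0.16, adjusted p = 0.328 in limma). The 3 other probe sets annotated to Tap1 had daily mean signals of 1.10 to 6.30, under the filter.

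**Figure D3:**
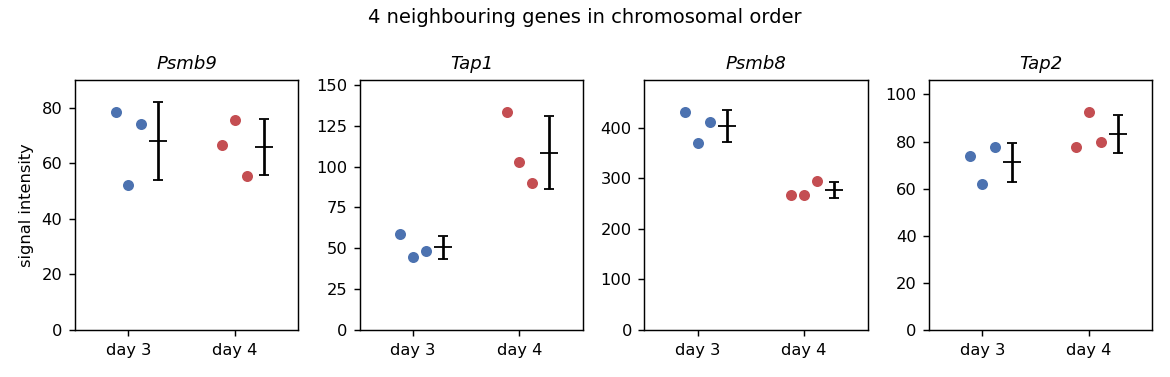
Signal intensity on each array (vertical axes, linear from 0, each panel on its own scale) of Psmb9, Tap1, Psmb8 and Tap2, in their order on the chromosome, at day 3 (blue, 3 arrays) and day 4 (red, 3 arrays), with mean ± SD in black. Tap1 is higher and Psmb8 lower on every day 4 array, while Psmb9 overlaps between the days.

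Of 16 other tested genes of interferon signalling and MHC class I, 5 fell and 1 rose (10.7% and 11.5% over all genes tested). The median change of the 16 was -0.07. Without 1 array, 4 to 6 fell and 0 or 1 rose. Irf1, an interferon-induced transcription factor, fell by 0.32 ± 0.09, and Gbp2, an interferon-induced GTPase, by 0.86 ± 0.16 (limma, adjusted p = 0.0269 and 0.0046). Ifnar2, a subunit of the type I interferon receptor, rose by 0.78 ± 0.20 (limma, adjusted p = 0.0193, lost without day 3 replicate 1 or 3). Day 4 replicates 1, 2 and 3 read 734, 1146 and 1157 for Gbp2, and 240, 143 and 153 for Ifnar2. Both changes thus lean on day 4 replicate 1, and their sizes without it are not given. Irf1 was lost without day 3 replicate 1 or 3 and without day 4 replicate 2 or 3. Erap1, which trims peptides in the endoplasmic reticulum, fell by 0.59 ± 0.10, and Tapbp, which loads peptides onto class I, fell by 0.56 ± 0.10 (limma, adjusted p = 0.0028 and 0.0045). H2-K1, a class I heavy chain, fell by 0.61 ± 0.11 (adjusted p = 0.00404 in limma, but 0.342 with the mean over its probe sets). B2m, the invariant light chain of class I, did not pass (1105 ± 76.4 at day 3 and 1232 ± 201 at day 4, mean ± SD, n = 3; adjusted p = 0.399 in limma).

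Blood cells, which carry immunoproteasomes at rest, were sought through 9 markers. Of these, 5 (Ptprc, Tyrobp, Fcer1g, Lyz2 and Cd52) lay under the filter, and none was listed at 0. The summed signal of the 9 was 184 to 238 at day 3 and 148 to 189 at day 4, and 1 of the 4 tested markers, Coro1a, was lower at day 4. The ranges of this sum overlapped between the days, and the markers had no common direction. Cd52 was higher on every day 4 array (13.0, 8.47 and 7.94, then 15.8, 14.4 and 23.3), and Laptm5 and Cd68 each had a change of 0.01. Coro1a, Cd74 and Ptprc were each lower on every day 4 array. So was the ES and epiblast sum given above. Endoderm markers were also lower (2 of 2 tested, or 1 without day 3 replicate 1, summed signal 108 to 153.5 at day 3 and 52.6 to 72.4 at day 4). The endothelial sum was higher (237 to 275, then 448 to 629.5) through Kdr, which rose, while Cdh5 did not pass but was lower on every day 4 array (18.5, 20.2 and 19.2, then 15.9, 12.2 and 7.30), and Pecam1, Tie1 and Tek lay under the filter. The fibroblast sums overlapped (262 to 314.5, then 181 to 290). The part of these markers in the result was not tested.

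The regulatory particle held most of the remaining falls, with 8 of its 17 genes lower (47.1%) and 0 higher (limma, also 0 higher at an unadjusted p under 0.05, and 9 lower), where 10.7% of all genes tested were lower. This count rested on single arrays, with 3, 5 and 2 genes lower without day 3 replicate 1, 2 or 3, and 8, 4 and 5 without day 4 replicate 1, 2 or 3. It was 2 with eBayes without trend and 5 with the mean over probe sets. Only Psmc5 passed in all of these, though it had 1 probe set, so the mean over probe sets could not alter the size of its change. The core particle without its inducible subunits had 0 of 14 tested genes called in either direction, with 1 higher and 3 lower at an unadjusted p under 0.05 (limma). Whether the counts of both particles differ was not tested. Median changes were -0.19 for the regulatory particle and -0.07 for the core particle.

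The base holds the ring of 6 ATPases that unfolds substrates and threads them into the barrel. Psmc5 changed most among them, with 1134, 981 and 946 at day 3, against 661, 673 and 667 at day 4. The day 4 arrays were tightly grouped and all below day 3, for a change of -0.61 ± 0.09 (limma, adjusted p = 0.00167), a call that held without any single array. Psmc4 read 3876.5, 3393 and 4113 at day 3, against 3218, 2593 and 2371 at day 4. It fell by 0.48 ± 0.11 (limma, adjusted p = 0.0147, lost without day 3 replicate 1 or 3 and with eBayes without trend, adjusted p up to 0.0728), and its second probe set fell by 0.55 ± 0.10 when every probe set was tested on its own. Psmc3 read 2325, 2036 and 1990.3 at day 3, against 1662.5, 1688.5 and 1748 at day 4, a fall of 0.31 ± 0.08 (limma, adjusted p = 0.0183, lost without day 3 replicate 1 or day 4 replicate 2). In each of these 3 genes the days did not overlap.

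Psmc2 had a small change. Its values were 7419.6, 7034 and 7502.5 at day 3, against 6611, 6288 and 6327 at day 4, a fall of 0.19 ± 0.05 (limma, adjusted p = 0.0247). The call was lost when any 1 of 4 arrays was left out (day 3 replicates 1 and 3, day 4 replicates 2 and 3), and with the probe set that carries no cross-hybridisation suffix the change was -0.09. Psmc1 and Psmc6 did not pass, with changes of -0.12 ± 0.08 and -0.11 ± 0.07.

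Of the non-ATPase base, Psmd1, a large scaffold that docks ubiquitin receptors, read 3035, 2609 and 2685 at day 3, against 2334, 2226 and 2033 at day 4. The days were apart, and it fell by 0.34 ± 0.08 (limma, adjusted p = 0.0167, lost on leaving out any 1 of day 3 replicates 1 and 3 and day 4 replicate 3). Psmd2, the other scaffold, and Psmd4, a ubiquitin receptor, overlapped between the days (changes of -0.10 ± 0.08 and -0.14 ± 0.11).

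The lid surrounds Psmd14, the enzyme that cuts ubiquitin chains from substrates. Psmd14 itself did not pass (4049 ± 346 and 3910 ± 352, mean ± SD, n = 3; limma, adjusted p = 0.707). Psmd3, a structural lid subunit, read 674, 669.7 and 687 at day 3, against 511, 524 and 554 at day 4, without overlap, and fell by 0.36 ± 0.08 (limma, adjusted p = 0.0144). Psmd13, another structural subunit, read 889.5, 1069 and 1075 at day 3, against 818, 801 and 722 at day 4, a fall of 0.37 ± 0.10 (limma, adjusted p = 0.0264). Leaving out day 3 replicate 2 or 3 or day 4 replicate 2 ended both calls, and for Psmd13 so did leaving out day 4 replicate 3. With the mean over its probe sets Psmd13 had a change of -0.25 (limma, adjusted p = 0.368).

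Psmd7 forms a dimer with Psmd14 in the lid, and its adjusted p was the highest of those called. It read 511, 460.1 and 542 at day 3, against 222, 393 and 385 at day 4, where the lowest value came from day 4 replicate 1, the array with the high 3′ to 5′ ratio. The change was -0.64 ± 0.20 (limma, adjusted p = 0.0476) and -0.37 ± 0.09 without that array (adjusted p = 0.0129). The call was lost without any 1 of the day 3 arrays. Averaging its probe sets gave -0.29 (limma, adjusted p = 0.494). A dimmer probe set of Psmd7 went the other way, from 44.9, 44.9 and 47.7 at day 3 to 67.0, 67.3 and 62.8 at day 4. The other lid genes, Psmd6, Psmd8, Psmd11 and Psmd12, did not pass, with changes from -0.22 to 0.07.

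The alpha ring forms the gate of the barrel, and its 7 tested genes were bright and steady. Their daily means ran from 1737 to 6129, and their changes from -0.24 to 0.02. Psma4 came closest to the threshold, at 2068 ± 121 and 1753 ± 109 (mean ± SD, n = 3; change -0.24 ± 0.08, limma adjusted p = 0.0523, and 0.00918 without day 4 replicate 1). Psma6 had a change of -0.06 ± 0.05. Psma8, a subunit of spermatogenic cells, lay under the filter at 7.14, 16.3 and 15.6 at day 3, against 9.15, 2.94 and 5.52 at day 4.

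Among the 7 tested constitutive beta ring genes, Psmb1 had the only positive change besides Psmb4. Psmb1, a structural beta subunit, read 1608, 1609.8 and 1697 at day 3, against 1800.2, 1917 and 1965 at day 4. The days did not overlap, but the change of 0.21 ± 0.07 did not pass (limma, adjusted p = 0.0582, and 0.0118 without day 4 replicate 1). Its brightest probe set without any suffix in its name went the other way (-0.22, limma adjusted p = 0.575). That probe set was far dimmer, with means of 72.1 at day 3 and 63.5 at day 4. Psmb3, also structural, had a change of -0.16 ± 0.07 (limma, adjusted p = 0.138, and 0.0169 without day 4 replicate 1). Without that array, or with array weights, 3 core genes (Psma4, Psmb3 and Psmb5) were called lower and 1 (Psmb1) higher. Over the 14 tested core genes the 95% intervals reached from -0.41 to 0.36. Psmb11, the subunit of the thymic cortex, lay under the filter, with means of 5.03 and 4.63.

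Among the caps that can replace the regulatory particle, none of the 3 activators with a probe set of its own passed (0 higher and 1 lower, Psme4, at an unadjusted p under 0.05 in limma). Psme1, a subunit of the interferon-inducible PA28 ring, was at 858 ± 120.4 and 761 ± 76.3 (mean ± SD, n = 3; change -0.17 ± 0.12). The probe set annotated to both Psme2 and Psme2b read 2642.5, 2226 and 2396 at day 3, against 1965, 1799 and 1858 at day 4, without overlap, and was not tested since it names no single gene. Psme3, which forms a nuclear ring, had a change of -0.24 ± 0.12 (limma, adjusted p = 0.178) and passed without day 4 replicate 1 (-0.35 ± 0.09, adjusted p = 0.017). Psme4, a large activator linked to histone turnover, had a change of -0.17 ± 0.07 (limma, adjusted p = 0.136), while its second brightest probe set fell by 0.27 ± 0.08 when tested on its own.

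Psmf1, an inhibitor of the core particle in vitro, fell. It read 234, 241 and 208 at day 3, against 123, 185 and 154 at day 4. The days were apart, with day 4 replicate 1 lowest, and the change was -0.58 ± 0.16 (limma, adjusted p = 0.0266, or -0.42 ± 0.12 and 0.0248 without day 4 replicate 1). Its 3 other probe sets also had all day 4 arrays below all day 3 arrays. The call was nevertheless lost without any 1 of the day 3 arrays or day 4 replicate 3 (adjusted p up to 0.0966).

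The assembly factors contained the single rise. Psmd10 (gankyrin), a chaperone of the ATPase ring, read 192, 182 and 204 at day 3, against 254, 238 and 273 at day 4. Every day 4 array was higher, and the change was 0.40 ± 0.11 (limma, adjusted p = 0.0267), a call lost when any 1 of the day 3 arrays or day 4 replicate 3 was left out (adjusted p up to 0.1003). Psmd5 and Psmd9, the other chaperones of the base, did not pass (-0.19 ± 0.11 and -0.17 ± 0.11). The chaperones of the core particle, Psmg1, Psmg2, Psmg3 and Psmg4, had changes of -0.03 ± 0.10, 0.08 ± 0.10, -0.15 ± 0.12 and -0.03 ± 0.17. Those of Psmg1 and Psmg4 turned positive without day 3 replicate 1 or day 4 replicate 2 or 3. The 2 genes that are not subunits did not pass either (Psmc3ip 0.06 ± 0.12, turning to -0.06 without day 4 replicate 1, and Psme3ip1 -0.03 ± 0.10).

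Many of these genes had several probe sets, up to 8 for Psmd11, and these did not always agree. When every probe set of the array was tested on its own, 90 of the 103 proteasome probe sets passed the filter, of which 16 were lower and 5 higher (limma). Over all probe sets tested, 8.53% were lower and 9.67% higher. Of 24 genes with several tested probe sets, 14 had all in 1 direction. Of the 12 called genes, 6 had several, and in 3 (Psmb8, Psmc4 and Psmf1) all went 1 way, while Psmc2, Psmd7 and Psmd13 were mixed. In each of these last 3 the probe set with a positive change was dim, with day 3 means of 18.6, 45.8 and 28.5. The second brightest probe set of Psmd13 had a change of -0.34 ± 0.11, without overlap (limma, adjusted p = 0.0557).

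The higher probe sets were mostly dim companions of brighter ones. Besides the Psmd10 probe set they were the second probe sets of Psmg2 (0.43 ± 0.12), Psmg3 (0.83 ± 0.20) and Psmd7 (0.52 ± 0.16), and one of Psma1 (0.66 ± 0.19). The brightest probe sets of these 4 genes had values of 0.08, -0.15, -0.64 and 0.02. For Psmd11 the opposite held. Its brightest probe set did not pass, with -0.08 ± 0.06 at day means of 4067 and 3840, while dimmer ones with means of 699 and 818 at day 3 fell by 0.54 ± 0.09 and 0.30 ± 0.09. A probe set can read a different transcript end or cross-hybridise, and which applies was not tested.

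**Figure D4:**
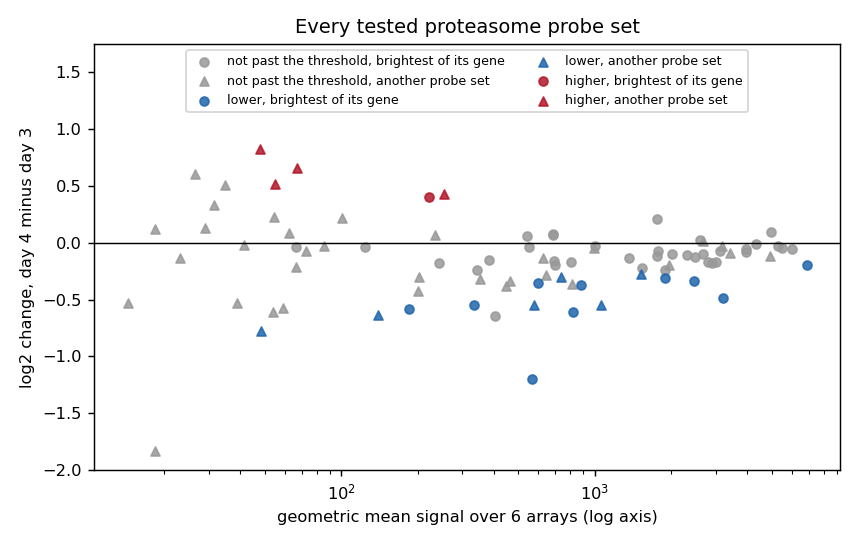
Log2 change from day 3 to day 4 against the geometric mean signal over 6 arrays (log axis) for the 90 tested proteasome probe sets. Circles are the brightest probe set of each gene and triangles the others, with blue for the 16 called lower and red for the 5 called higher when every probe set is tested. Changes scatter more widely at low signal, and 4 of the 5 red points are triangles.

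Partners and regulators of the proteasome whose symbols lie outside the rule were taken from separate lists. Of 18 tested partners, 5 fell and 1 rose, where 10.7% and 11.5% of all genes tested did so. The median change of the partners was -0.08. The counts were the same without day 4 replicate 1, but 2, 2 and 1 fell without day 3 replicate 1, 2 or 3, 3 and 4 without day 4 replicate 2 or 3, and in these 5 cases 0 rose. With eBayes without trend 1 fell and 0 rose. Pomp, the chaperone that completes the core particle, read 1736, 1551 and 1570.3 at day 3, against 1435, 1237 and 1224 at day 4. The days did not overlap, and it fell by 0.32 ± 0.09 (limma, adjusted p = 0.0278, lost without any 1 array other than day 4 replicate 1). Nploc4, a cofactor that helps extract ubiquitinated proteins, fell by 0.87 ± 0.18, and Uchl5, a deubiquitinase bound to the base, fell by 0.34 ± 0.08 (limma, adjusted p = 0.0072 and 0.0146). Uchl5 was lost without day 3 replicate 3 or day 4 replicate 2. The shuttle Rad23b and the ligase Ube3c fell by 0.41 ± 0.11 and 0.47 ± 0.12 (limma, adjusted p = 0.022 and 0.0225), and both calls were lost without any 1 of the day 3 arrays. Both read lowest on day 4 replicate 1. Day 4 replicates 1, 2 and 3 gave 677, 865 and 858 for Rad23b, and 396, 487 and 519 for Ube3c. The change of Rad23b was -0.19 with the mean over its probe sets and -0.05 without probe sets whose names carry a suffix. The rise was in Akirin2, which helps carry proteasomes into the nucleus (0.28 ± 0.08; limma, adjusted p = 0.0333, lost without any 1 array other than day 4 replicate 1). Sem1, a small lid subunit whose symbol lies outside the rule, did not pass (0.12 ± 0.06).

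Of 13 tested regulators of proteasome genes, 2 fell and 0 rose, where 10.7% and 11.5% of all genes tested did so (limma). Also 0 of the regulators rose at an unadjusted p under 0.05, and 1 rose without day 4 replicate 1. Nfyc, a subunit of the factor that binds CCAAT boxes, fell from 1188 ± 42.5 to 841 ± 21.3, and Maff, a small Maf protein that pairs with Nrf factors, from 194 ± 6.38 to 127 ± 4.11 (mean ± SD, n = 3; limma, adjusted p = 0.00179 and 0.00407). Both were below day 3 on all day 4 arrays. Nfe2l1, which encodes Nrf1, the factor that raises proteasome genes when the proteasome is inhibited, read 149, 158 and 161 at day 3, against 139, 223 and 212 at day 4. Day 4 replicate 1 was lowest and the other 2 day 4 arrays highest, so the change was 0.26 ± 0.18 (limma, adjusted p = 0.319), and 0.48 without that array (adjusted p = 0.00772). Promoter windows were found for 41 of the 49 proteasome genes, and 9 of these 41 genes were called. A gene was counted when any of its windows held the motif, while the share over all windows counted each window. The shares below are thus in unlike units. The antioxidant response core that Nrf factors bind occurred in 5 of the 41 (12.2%, against 10.2% of all windows), none called. A CCAAT box occurred in 16 of the 41 (39%, against 33.8% of all windows), of which 2 were called. Whether motifs and calls go together was not tested.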

How the data were processed

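RNA from sorted cells was amplified in 2 cycles and hybridised to Affymetrix arrays, 3 per day, per the labels. The deposited values are MAS5 signal intensity on a linear scale, per the submitters' processing notes. RNA was extracted with 1 of 2 kits, and the kit of each sample is not given in the sources used here. Probe sets with 1 gene symbol in the platform annotation were kept. The log2 signals of each gene's brightest probe set above the 40th percentile (signal 13.45) were compared between days with limma 3.58.1 in R 4.3.3 (lmFit, eBayes with trend), with Benjamini-Hochberg adjustment and a threshold of 0.05. Pairs of subunits were compared with exact permutation tests. The number of arrays limits the precision.

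The genes and lists were chosen with earlier results of these data known. Named by rule were the inducible subunits and their counterparts, the tissue-restricted subunits, the activators, the inhibitor, the assembly factors, Psmc3ip, every other called member with the 2 of smallest p in each subcomplex, and up to 4 called genes of each further list with Nfe2l1, Pomp, Tap1 and B2m. Other genes named were chosen after their values were seen. Of a ubiquitin supply list, 1 gene was tested (Uba6, change -0.05, not called), and the others were not analysed here. Alternatives covered the offset, scaling, filter, choice of probe set, variance model, array weights, replicate number, threshold and each array; counts per gene list under these alternatives were added after seeing the data. On simulated data for this comparison with 12285 genes, the fit recovered 21% of changes of 0.5 and 52% of changes of 1 on the log2 scale. Each size was given to 100 genes drawn from all tested, so far fewer genes changed than were called in the data. Recovery among the proteasome genes, whose median SE was smaller, was not simulated.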

Additional observations from a re-analysis of the deposited data

How the results depend on the processing

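The count of 11 lower proteasome genes was 4 with eBayes without trend and 17 with array weights, 12 with the replicate block, and 4 to 15 when 1 array was left out; in the other alternatives it was 8 to 14. The count of 1 higher gene was 2 with quantile normalization, a filter at the 60th percentile, array weights or an adjusted p under 0.10, 0 without suffixed probe sets, and 0 to 2 when 1 array was left out. Suffixed names were those ending in _x_at, _s_at or _a_at. Without them 40 proteasome genes were tested, and Psmd10 was not, since its only probe set carries a suffix. Over all genes, 1411 higher and 1318 lower became 2163 and 2149 with array weights, 865 higher with the mean over probe sets, and 882 higher and 714 lower without day 3 replicate 3. The labels do not say whether a replicate number was shared between days. Deviations from the daily means correlated little between arrays of the same number (0.07, 0.01 and 0.00). This cannot decide the pairing, since arrays of unlike numbers were not compared. The replicate block turned no named proteasome gene's call other than that of Psma4 (adjusted p = 0.0285 in limma).

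With the mean over probe sets the change turned to 0.18 for Psme3, 0.037 for Psme4, 0.34 for Psmg3, 0.53 for Psmg4 and 0.10 for Psmd9. With array weights it turned to 0.044 for Psmb9 and -0.041 for Psmc3ip, and without suffixed probe sets to -0.22 for Psmb1. When 1 array was left out the change ranged from -0.221 to 0.079 for Psmb9, from -0.111 to 0.026 for Psmg1, from -0.155 to 0.111 for Psmg4 and from -0.064 to 0.141 for Psmc3ip. The change from day 3 to day 4 in the difference Psmb9 minus Psmb6 (0.035) was -0.084 with quantile normalization and ranged from -0.12 to 0.13 when 1 array was left out. The causes were not tested. Of 740 values of single genes under alternatives, 638 kept direction and side of the threshold, 66 no longer passed, 18 newly passed and 18 changed sign. Psmb10, Psmb8 and Psmc5 kept their calls in every alternative run for them. Psmb10 and Psmc5 had 1 probe set each, so alternatives on the choice of probe set could not alter the size of their changes. Small changes of dim probe sets were beyond the precision of 3 arrays per day.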
